A study of Drosophila melanogaster with 8 samples.

Results

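The genes ana, CG30345, CG1698 and Lime lie within 1 Mb of Boot on chromosome arm 2R of Drosophila melanogaster and differed in RNA level between wild-type and mutant ovaries. These 4 genes, of 18958 genes, unplaced transcripts and transposons in the total RNA table, were chosen by their position and by that difference in the same 4 libraries. Their differences are therefore described here with no test. The wild type was Oregon-R, with 2 libraries (wild type 1 and wild type 2). The mutants carried the allele egt17 or egt8, with 1 library each, both labelled null for egt, which was taken to be the gene the series calls boot. Neither the age of the flies, the lesion of each allele, nor the strain in which the alleles were made is given in the labels. Effects of the mutation and of linked strain background thus cannot be told apart in this design. Total RNA and small RNA of dissected ovaries were each sequenced in 4 libraries, and the labels do not say whether each library had flies of its own.

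Boot encodes a germline protein that helps to export piRNA cluster transcripts from the nucleus, and piRNAs guide the silencing of transposons in the germline. A mutation kept in a fly stock stays joined to the chromosome stretch in which it arose, so nearby genes can carry sequence variants of another strain. Ana (anachronism) encodes a glycoprotein secreted by glia that holds neuroblasts in quiescence in the larval brain. CG1698 belongs to the neurotransmitter sodium symporter family, which moves amino acids and transmitters into cells. Lime, for linking immunity and metabolism, encodes a zinc finger protein known from hemocytes, the blood cells of the fly. CG30345 is known by its annotation number.

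Depth and library type set the frame for every value. Values are FPKM (fragments per kilobase of transcript, scaled to library size), summed over the transcripts of a gene. From the steps of low values, depth was estimated at 6.29 M reads for wild type 1 and 6.12 M for egt17, and at 16.6 M for wild type 2 and 15.9 M for egt8. On a transcript of 2 kb, 3 reads would be worth 0.245 FPKM in egt17 but 0.0943 FPKM in egt8, for counting error only. Log2 values over 8755 features gave a Pearson correlation of 0.966 for egt17 with wild type 1, of 0.948 for egt8 with wild type 2, and of 0.901 for the wild types with each other. Each mutant is therefore also set beside the wild type it resembles. Germline markers had similar differences in these pairs (medians of 0.18 and 0.16 on the log2 scale), whereas muscle markers went from -0.98 in egt17 to 2.28 in egt8. In dissected ovaries, fewer cells of a type and less RNA per cell cannot be told apart.

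Boot itself stood at 88.6 FPKM in wild type 1 and 89.7 FPKM in wild type 2, while the egt17 library had 40.6 FPKM and the egt8 library 52.1 FPKM. Both mutants were below both wild types, at 46.3 FPKM ± 8.16 against 89.2 FPKM ± 0.766 (SD, n = 2 each). Its log2 difference was -0.94 ± 0.32 (SE), and it did not pass limma (adjusted p = 1.0 over all features, or 0.164 when the library pair was a term). Boot transcript was thus still counted in both mutants. The gene overlaps Nadk2, an NAD kinase gene, which was at 33.4 and 25.6 FPKM in Oregon-R, against 25.0 in egt17 and 22.9 in egt8.

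CG30345 had the largest difference of the 4 genes. It lies on 2R from 9148689 to 9151892 in the dm6 build, 54.0 kb from Boot, with 18 tested genes between them. Its RNA was at 3.21 FPKM in wild type 1 and 2.39 FPKM in wild type 2, while the egt17 library had 36.8 FPKM and the egt8 library 31.7 FPKM. Both mutants were far above both wild types and close to each other. Mean levels were 2.80 FPKM ± 0.582 in wild type and 34.3 FPKM ± 3.64 in the mutants (SD, n = 2 each), a ratio of 12.2. Within the pairs the ratio was 11.5 for egt17 and 13.3 for egt8, and the pooled log2(FPKM + 1) difference was 3.22 ± 0.42 (SE). By size this was the 10th of 8755 features. That SE, like the others given here, is from the limma fit and borrows variance from other features. The pooled SD of the gene's own log2 values was 0.19. For the 4 genes, chosen for their difference, no test is to be read from difference and SE. At most 65 reads stood behind the wild type 1 value and at most 722 behind that of egt17, since the gene span that gives these bounds includes introns.

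The genes on either side of CG30345 stood differently. CG30344 ends 0.2 kb from it and was at 17.7 and 15.5 FPKM in Oregon-R, against 21.1 in egt17 and 14.1 in egt8. Its groups overlapped, with a log2 difference of 0.06 ± 0.42 (SE). CG8008, 6.0 kb away on the other side, was at 0.990 and 0.489 FPKM in Oregon-R, against 1.98 in egt17 and 1.83 in egt8. It was higher in both mutants, by 0.75 ± 0.44 on the log2(FPKM + 1) scale, and did not pass the test (limma adjusted p = 1.0, and 0.421 with the pair term). CG8008 was under 1 FPKM in both wild types and could enter the test only through the mutants.

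Ana was higher in the mutants as well, from a lower start. It lies on 2R from 9062295 to 9077554, 15.0 kb from Boot on the side of lower coordinates, with 2 tested genes between them. Its summed RNA was at 1.34 FPKM in wild type 1, 2.46 FPKM in wild type 2, 6.59 in egt17 and 13.9 in egt8. The groups did not overlap, and egt8 stood above egt17 as wild type 2 stood above wild type 1. Means were 1.90 FPKM ± 0.790 and 10.2 FPKM ± 5.18 (SD, n = 2 each). Over the paired wild type, egt17 was 4.91 times as high and egt8 was 5.66 times as high, and the pooled log2(FPKM + 1) difference was 1.90 ± 0.56 (SE), the 74th by size.

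All 3 listed transcripts of ana were higher in both mutants than in both wild types, with log2(FPKM + 1) differences of 1.45, 1.52 and 1.20. The transcript with the largest share in wild type held 48.8% and 39.5% of the summed FPKM there, and 30.7% in egt17 and 34.0% in egt8. Another went from 17.1% and 27.2% in wild type to 35.8% and 29.0%. Reads shared by transcripts may enter such a sum repeatedly. Ana overlaps an antisense RNA gene in the annotation, and without stated strand their reads cannot be told apart. The nearest tested genes were CG13742, 7.0 kb away, and babo, which encodes a type I receptor of the activin pathway. CG13742 was at 5.66 and 7.68 FPKM in Oregon-R, against 6.60 in egt17 and 3.10 in egt8. Babo was at 12.5 and 24.9 FPKM in Oregon-R, against 13.1 in egt17 and 31.6 in egt8, so that it followed the pairs, and the groups of both genes overlapped.

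**Figure D1:**
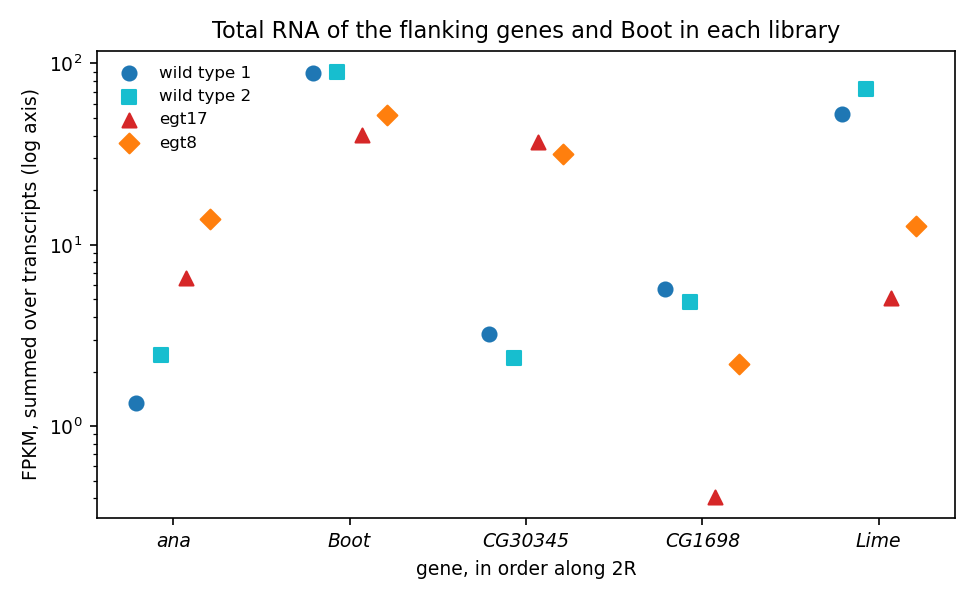
FPKM (log axis) of ana, Boot, CG30345, CG1698 and Lime in each of the 4 total RNA libraries, 1 point per library, with genes in order along 2R. For ana and CG30345 both mutants lie above both wild types, and for Boot, CG1698 and Lime they lie below.

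Lime was lower in the mutants, by more than CG1698. It lies on 2R from 9871470 to 9873646, 776.8 kb from Boot, and 130 tested genes are nearer to Boot than it is. Its RNA was at 52.5 FPKM in wild type 1 and 72.6 FPKM in wild type 2, while the egt17 library had 5.08 FPKM and the egt8 library 12.6 FPKM. Both mutants were well below both wild types, and egt8 was above egt17. Means were 62.6 FPKM ± 14.2 and 8.85 FPKM ± 5.33 (SD, n = 2 each). Wild type was 10.3 times egt17 and 5.76 times egt8 within the pairs. The pooled log2(FPKM + 1) difference was -2.79 ± 0.53 (SE), the 18th by size of 8755. At most 68 reads stood behind the egt17 value.

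Lime lies within the span of peo (pendolino), a gene of telomere protection. Peo was at 21.6 and 17.9 FPKM in Oregon-R, against 20.1 in egt17 and 14.4 in egt8, and its groups overlapped. CG12744, 1.2 kb from Lime, was higher in the mutants, with 51.3 and 28.1 FPKM in Oregon-R, against 79.1 in egt17 and 53.8 in egt8. It did not pass the test (log2 difference 0.76 ± 0.45 SE, limma adjusted p = 1.0, and 0.224 with the pair term). On the other side Ntmt was at 124 and 44.7 FPKM in Oregon-R, against 120 in egt17 and 35.6 in egt8, which follows the pairs.

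CG1698 was lower in the mutants by unequal amounts. It lies on 2R from 9793326 to 9798006, 698.7 kb from Boot and 73.5 kb from Lime. Its summed RNA was at 5.69 FPKM in wild type 1, 4.83 FPKM in wild type 2, 0.409 in egt17 and 2.21 in egt8. Both mutants were below both wild types, with egt17 the lowest. Means were 5.26 FPKM ± 0.609 and 1.31 FPKM ± 1.27 (SD, n = 2 each). Wild type was 13.9 times egt17 and 2.19 times egt8 within the pairs. The log2(FPKM + 1) difference was -1.55 ± 0.57 (SE), the 137th by size. At most 12 reads stood behind the egt17 value, so its ratio is imprecise.

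Both listed transcripts of CG1698 were lower in both mutants, by -1.25 and -1.11 on the log2(FPKM + 1) scale. The first held from 60.7% to 72.3% of the summed FPKM over the 4 libraries. CG1698 lies within the span of CG1688, which was at 0.0153 FPKM or less in every library. The nearest tested genes were dap, which encodes an inhibitor of cyclin-dependent kinases, and CG1648. Dap was at 39.0 and 36.8 FPKM in Oregon-R, against 46.7 in egt17 and 28.8 in egt8, and its groups overlapped. CG1648 was at 17.01 and 15.9 FPKM in Oregon-R, against 18.9 in egt17 and 22.5 in egt8, higher without overlap and not past the test (limma adjusted p = 1.0, and 0.556 with the pair term).

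In level, the order of the 4 genes differed between the groups. In wild type Lime was highest in FPKM, followed by CG1698, and CG30345 and ana came last with overlapping ranges (2.39 to 3.21 FPKM and 1.34 to 2.46 FPKM). In the mutants CG30345 was highest, Lime (5.08 to 12.6 FPKM) and ana (6.59 to 13.9 FPKM) overlapped, and CG1698 was lowest.

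The 4 genes were read against the 183 tested genes within 1 Mb of Boot, out of 360 listed there. The 73 genes at 0 in every library, with the rest under the filter of 1 FPKM in 2 libraries, were not tested. All 4 passed that filter through both wild types. At least 2-fold apart on the FPKM + 1 scale, in both mutants from both wild types, were 3 genes higher (ana, CG30345 and Cyp6a14) and 3 lower (Lime, Cyp4p2 and lncRNA:CR43651). That rule took 0.822% of all 8755 features as higher and 0.354% as lower. CG1698 fell short of it, with egt8 at 0.86 log2 units under the lower wild type. Of the 6 genes, 3 were among those chosen for this difference, so nothing is read from the total. Without the 4 chosen genes and Boot, 3 of 178 genes were left, 1.69% against 1.18% of all features, which rests on 3 genes.

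With the chosen genes and Boot left out, the other genes of the window differed by about as much as features over the whole genome. All features kept their own changed genes, so this likeness was in part fixed by the removal. With those genes kept, 7.10% of the 183 differed by more than 1 on the log2 scale, against 4.96% of all features. Their median size of difference was 0.20 against 0.23. Whether the region is ordinary cannot be decided from either set, since the chosen genes were picked for their difference. The groups did not overlap for 13 of the 178 other genes in the higher direction, or 7.30%, against 9.34% of all features. In the lower direction they did not overlap for 23, or 12.9%, against 11.6%. The median log2 difference was -0.08 in these 178 genes and -0.06 over all features, with 69 positive and 109 negative. The median size of a difference regardless of sign was 0.19 and 0.23. By limma 0 of the 178 passed at an adjusted p of 0.05, as for 0% of all features. Since nothing passed that fit anywhere, its count says nothing about the window. An unadjusted p under 0.05 by that fit was found for 6 (3.37%), against 1.90% of all features. With the pair term 0 of the 178 passed, where 0.148% of all features did, and 26 (14.6%) had an unadjusted p under 0.05 against 13.2%. The lowest adjusted p among them with that term was 0.117, for Cyp6a13. That fit has 1 residual degree of freedom.

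**Figure D2:**
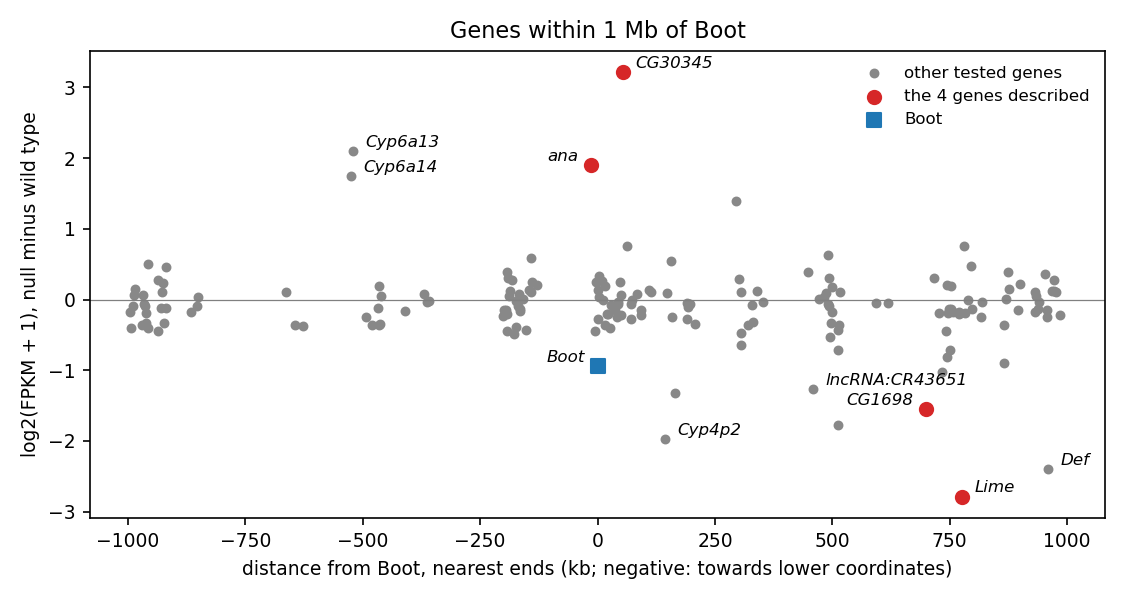
Difference in log2(FPKM + 1), null minus wild type, of the 183 tested genes within 1 Mb of Boot against their distance from it in kb, 1 point per gene. Most genes lie near 0, CG30345 and ana lie above 1.9, and Lime and CG1698 lie below -1.5.

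Among the highest genes of the window the groups mostly overlapped. So they did over all features, of which 9.34% were higher and 11.6% lower without overlap. RpL31, a ribosomal protein gene, was at 4350 and 1401 FPKM in Oregon-R, against 5044 in egt17 and 1856 in egt8. Non1, which encodes a nucleolar GTPase, and CCT8, a chaperonin subunit, had log2 differences of 0.29 ± 0.52 and 0.12 ± 0.42 (SE). Prosalpha7, a proteasome subunit, had one of -0.13 ± 0.58. TER94, the fly counterpart of the VCP ATPase, was at 464 and 401 FPKM in wild type and 383 and 394 FPKM in the mutants, lower without overlap and by -0.15 ± 0.32. Next to Boot, Dbp45A, an RNA helicase gene, was at 26.4 and 21.4 FPKM in Oregon-R, against 32.3 in egt17 and 25.2 in egt8. The nearest tested gene on the other side, snoRNA:Or-aca5, was at 3.21 and 1.63 FPKM in wild type and 3.30 and 2.12 FPKM in the mutants.

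The 3 other genes of the window that were 2-fold apart were near the filter or low. Cyp4p2, a cytochrome P450 gene 142.9 kb from Boot, was at 3.83 and 2.51 FPKM in wild type and 0.0915 FPKM in egt17, and was listed at 0 in egt8. Cyp6a14, another P450 gene at 525.3 kb on the side of lower coordinates, was at 0.160 and 0.366 FPKM in Oregon-R, against 3.40 in egt17 and 3.05 in egt8. Cyp4p2 could enter the test only through wild type and Cyp6a14 only through the mutants. The noncoding RNA gene lncRNA:CR43651, whose span includes mir-14, was at 6.84 and 6.65 FPKM in Oregon-R, against 2.78 in egt17 and 1.72 in egt8. None of the 3 passed (limma adjusted p of 1.0, and from 0.179 to 0.247 with the pair term). Larger than ana in pooled difference, but not 2-fold apart in every library, were Def and Cyp6a13. Def, the gene of the antimicrobial peptide Defensin, was at 42.8 and 13.4 FPKM in Oregon-R, against 21.6 in egt17 and 0 in egt8.

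Each of the 4 genes went the same way in both pairs, which their choice by the difference in these libraries largely fixed. The egt17 and egt8 differences on the log2(FPKM + 1) scale were 3.17 and 3.27 for CG30345, 1.70 and 2.11 for ana, -3.14 and -2.44 for Lime, and -2.25 and -0.86 for CG1698. Of the 183 genes of the window, 33.9% had opposite signs in the pairs, against 38.1% of all features.

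**Figure D3:**
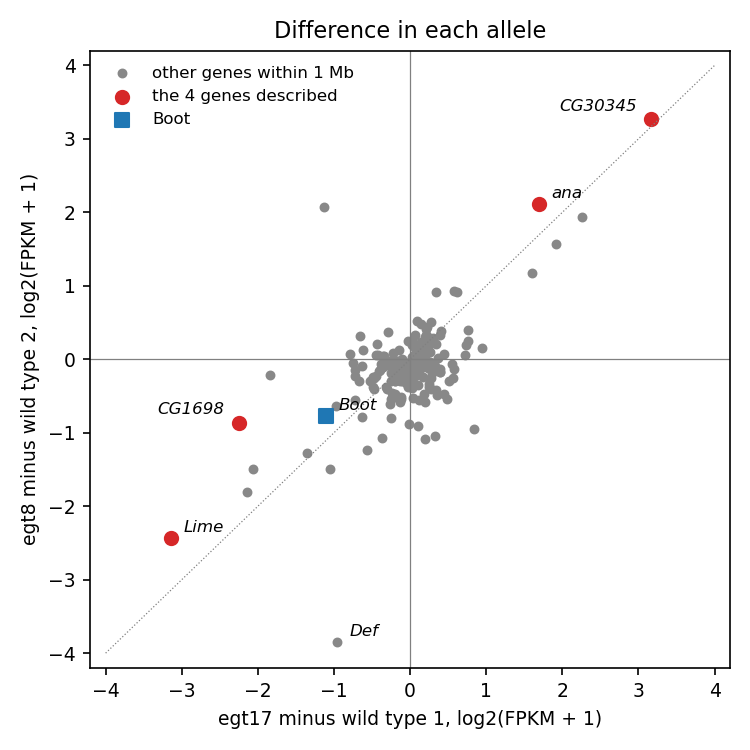
Difference of egt17 from wild type 1 (horizontal) and of egt8 from wild type 2 (vertical) in log2(FPKM + 1), 1 point per tested gene within 1 Mb of Boot, with the dotted line marking equal differences. CG30345 (3.17 and 3.27) and ana lie at the upper right and near the line, Lime at the lower left, and CG1698 (-2.25 and -0.86) is farther from 0 in egt17 than in egt8.

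By distance, genes 2-fold apart were 4 of 102 within 0.5 Mb of Boot and 2 of 81 from 0.5 to 1 Mb. They were 1 of 169 from 1 to 2 Mb, 5 of 352 from 2 to 5 Mb and 14 of 930 beyond 5 Mb on 2R. The other arms held 18 of 1422 (X), 18 of 1478 (2L), 10 of 1498 (3L), 14 of 1922 (3R) and 0 of 63 (4). Of the 6 nearest, 3 had been chosen for their difference. The nearest such gene past 1 Mb with at least 5 FPKM in the higher group was CG30016, 1780.2 kb from Boot. It was at 2.13 and 0.675 FPKM in Oregon-R, against 5.47 in egt17 and 7.74 in egt8. On the other side it was CG7882, 3132.3 kb away, at 1.64 and 0.333 FPKM in Oregon-R, against 4.99 in egt17 and 13.6 in egt8. Lime, at 776.8 kb, was the farthest of the 4 genes inside the limit.

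**Figure D4:**
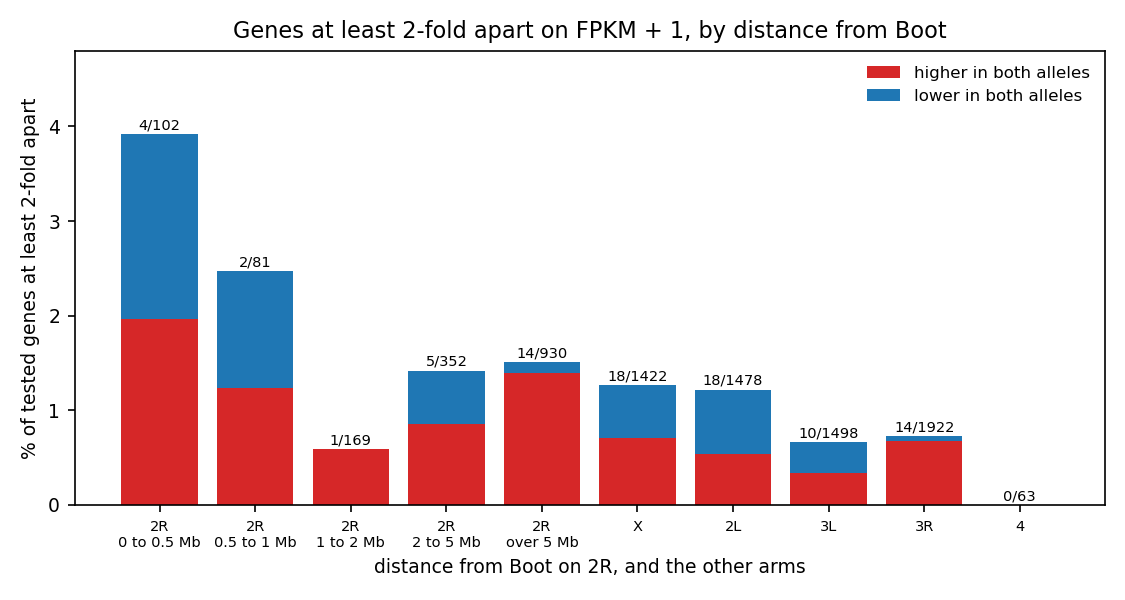
Percentage of tested genes at least 2-fold apart on FPKM + 1 in both mutants from both wild types, by distance from Boot on 2R and on each other arm, with counts above the bars. The first bar holds 4 of 102 genes and the second 2 of 81, and these 6 include ana, CG30345 and Lime, which were chosen for their difference.

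Genes of the same families and pathways were read beside the chosen genes. Of 18 genes of the sodium symporter family, 5 passed the filter (CG1698 among them) and 3 were at 0 in every library. By limma 0 of the 4 others passed. The median log2 difference of the 5 was -0.04, beside -0.06 over all features. The highest of the family, blot, was at 51.5 and 66.4 FPKM in Oregon-R, against 52.8 in egt17 and 63.6 in egt8, and its groups overlapped. List, another symporter gene, was under the filter in all but egt8, at 0.258 and 0 FPKM in Oregon-R, against 0.886 in egt17 and 3.33 in egt8.

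Of 15 genes of neuroblast quiescence and reactivation, 9 were tested, ana among them. Their median log2 difference was 0.25, beside -0.06 over all features, but it counts ana, which was chosen for its difference. Of the 9, 5 were positive and 4 negative. By limma 0 of the 8 others passed. The neuroblast genes ase and wor were at 0 in every library. The gene trol, which encodes the proteoglycan perlecan and is needed for neuroblasts to leave quiescence, was at 4.75 and 14.9 FPKM in Oregon-R, against 8.09 in egt17 and 61.2 in egt8 (adjusted p = 1.0 by limma and 0.273 with the pair term). Of 8 markers of glia and neurons 3 passed the filter, the glial marker repo stayed at 0.147 FPKM or less, and the neuronal marker Syt1 was at 0 in every library. Their summed level was 7.03 and 8.75 FPKM in Oregon-R, against 9.34 in egt17 and 18.7 in egt8. In egt8 most of this sum came from Gs2 (8.36 FPKM), nrv2 (5.88 FPKM) and moody (3.31 FPKM). Ana and the sum were thus both highest in egt8. The sums of the muscle, fat body and hemocyte markers were highest there too (665, 82.2 and 234 FPKM), so this was not particular to glia and neurons. The part of these cells in the ana values was not tested.

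Of 8 matched genes of carbohydrate stores and transport, Lime among them, 0 of the 7 others passed by limma, with or without the pair term. The median log2 difference of the 8, with the chosen gene Lime counted, was 0.05, beside -0.06 over all features. Trehalase (Treh) was at 47.3 and 61.4 FPKM in Oregon-R, against 50.9 in egt17 and 69.4 in egt8. Pgi, which encodes phosphoglucose isomerase, also lies within 1 Mb of Boot. It was at 156 and 144 FPKM in Oregon-R, against 97.2 in egt17 and 117 in egt8, lower without overlap and not past the test (adjusted p = 1.0 by limma and 0.313 with the pair term). Of 10 hemocyte markers 5 passed the filter. The defining markers Hml and NimC1 stayed at 0.593 FPKM or less and He was at 0 in every library. The summed level over the 10 was 85.4 and 73.8 FPKM in Oregon-R, against 83.9 in egt17 and 234 in egt8. In egt8 the collagen genes Col4a1 (109 FPKM) and vkg (85.0 FPKM) made up most of the sum. The markers did not all go the same way, and srp was at 5.09 and 24.7 FPKM in Oregon-R, against 3.90 in egt17 and 15.6 in egt8. The part of hemocytes in the Lime values was not tested. Of 9 cluster transcription and export genes, Boot among them, 7 were tested and 0 passed by limma, with or without the pair term. Their median log2 difference, with Boot counted, was -0.17, beside -0.06 over all features. Of the 7, 2 were positive and 5 negative. The largest difference was that of moon (-1.07), at 83.9 and 41.8 FPKM in Oregon-R, against 29.5 in egt17 and 26.1 in egt8, lower without overlap.

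The profile most like that of each gene was sought among all features by the Euclidean distance of centred log2(FPKM + 1) values over the 4 libraries. For CG30345 it was Arc1 (2R, distance 0.452), at 37.4 and 19.0 FPKM in Oregon-R, against 257 in egt17 and 238 in egt8. CG16957 (0.625) and CG11892 (0.739) came next. For Lime it was CG43867 on X (0.512), then lncRNA:CR45756 (0.691) and Culd (0.816). For ana it was the retrotransposon accord (0.290), at 0.150 and 0.284 FPKM in wild type and 2.31 and 5.17 FPKM in the mutants, followed by McClintock (0.308) and snoRNA:Psi28S-2444 (0.378). For CG1698 it was the chorion gene Cp19 (0.359), at 3185 and 2783 FPKM in Oregon-R, against 561 in egt17 and 1141 in egt8, followed by CG10163 (0.445) and CG31926 (0.465). None of those with a position lies within 1 Mb of Boot. With 4 libraries many profiles are alike. Accord, McClintock, snoRNA:Psi28S-2444 and CG16957 were under 1 FPKM in both wild types and could enter only through the mutants. With nothing added to FPKM, the mutant mean was 17.2 times wild type for accord and 17.3 times for McClintock, against 5.4 times for ana. Their likeness to ana thus depends on the added 1, and a link between them was not tested. The summed level of 9 follicle cell markers, the ovarian cells that make chorion, was 5592 and 4493 FPKM in Oregon-R, against 2133 in egt17 and 3786 in egt8. Most of that sum was the chorion gene Cp36, at 4201 and 3416 FPKM in Oregon-R, against 1273 in egt17 and 2007 in egt8. The list as a whole went the other way, with 6 of 8 tested markers positive and a median log2 difference of 0.42. The part of follicle cells in the CG1698 values was not tested. The sum of 6 fat body markers was 15.1 and 44.9 FPKM in Oregon-R, against 16.6 in egt17 and 82.2 in egt8, most of it from FASN1. The defining fat body markers Lsp2, Fbp1 and Fbp2 were at 0.320 FPKM or less in the other 3 libraries and at 6.88, 1.49 and 3.10 FPKM in egt8.

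No piRNA cluster of the small RNA table overlapped the window, so none of the 4 genes has a small RNA value. Of 94 clusters 0 lay within 1 Mb of Boot. The nearest, cluster128, lies on 2R from 7433719 to 7439503, 1.65 Mb from Boot. It was at 2.09 RPKM in wild type 1, 3.29 RPKM in wild type 2, 0.362 RPKM in egt17 and 0.0289 RPKM in egt8. These values correspond to 237, 129, 48 and 1 reads, with both mutants below both wild types. The large cluster 42AB, a main germline source of piRNAs at 2.59 Mb, was at 110 and 154 RPKM in Oregon-R, against 23.2 in egt17 and 92.2 in egt8. At 3.7 Mb, cluster56 was at 443 and 306 RPKM in Oregon-R, against 110 in egt17 and 121 in egt8. Lower values in both mutants were thus not particular to the cluster nearest Boot.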

How the data were processed

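Per the file headers and values, the authors deposited total RNA as FPKM with 1 added, 1 line per transcript or transposon (35502), and 1 was subtracted. Small RNA was deposited by the authors as 1 value per cluster, taken as RPKM because values step by whole reads. Bowtie2 2.2.4 and the dm6 build are named in the submitters' processing notes. Not given in the sources used here are the counting tool, its strand setting and the treatment of multiply mapping reads. RefSeq names and positions (Release 6) matched 32988 of 35327 transcripts. The other 2339 were kept without position. Transcripts were summed by gene.

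Features with at least 1 FPKM in 2 libraries (8755) were tested with limma 3.58.1 (R 4.3.3) on log2(FPKM + 1), two-sided, with a variance trend and Benjamini-Hochberg adjustment at 0.05. The alleles were replicates of the null genotype (2 residual degrees of freedom), so p-values measure only how these libraries vary, in part perhaps technically. With so few degrees of freedom, a gene that did not pass is not shown to be unchanged. Without the pair term 0 of the 8755 features passed, so failing that fit sets no gene or list apart. The pairing of egt17 to wild type 1 and of egt8 to wild type 2 comes from correlation and depth, not from the labels. Depth came from steps of single-transcript genes, of which 40.5% to 43.3% were whole within 0.03 reads, so depths are approximate. Intervals and floors cover counting error only.

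The members, lists, pairs and alternatives were chosen with earlier results of these data known. Named genes were the 4 genes, Boot, window genes at least 2-fold apart, nearest tested neighbours, the nearest such genes past 1 Mb, the 5 highest of the window and the 3 most like each of the 4. Overlapping genes, Def, Cyp6a13 and the further genes of the window given last were named after their values were seen. Python 3.11.15, numpy 2.4.6, pandas 2.3.3 and matplotlib 3.10.9 were used.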

Additional observations from a re-analysis of the deposited data

How the results depend on the processing

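The 4 genes kept their direction in each alternative run for them (11 each, 10 for CG1698, which did not pass a filter of 5 FPKM). The log2 difference ranged from 2.33 to 3.58 for CG30345, 1.11 to 2.39 for ana, -3.37 to -2.21 for Lime and -2.30 to -0.72 for CG1698. Leaving out egt17 gave -0.96 for CG1698 and leaving out egt8 gave -2.15. The pair term changed no difference, only its SE.

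The number of genes within 1 Mb at least 2-fold apart (6) was 2 with a pseudocount of 5 (CG30345 and Lime), 1 at 4-fold, 11 at 1.5-fold and 3 without the 4 genes. Over all 8755 features the count was 103, with 31 at a pseudocount of 5, 17 at 4-fold and 254 at 1.5-fold. The window count ranged from 8 (without wild type 1) to 12 (without egt17) with a library left out, and was 10 without wild type 2 or without egt8. The count over all features rose as well, to 287 without wild type 1 and 578 without egt17. It was 253 without wild type 2 and 307 without egt8, so the rule is looser everywhere with a library left out. With nothing added to FPKM, an alternative chosen after seeing the data, the window count was 8 and included CG1698, beside 194 over all features. The median log2 difference of all genes within 1 Mb (-0.08) ranged from -0.19 (without egt17) to 0.0247 (without egt8) with a library left out, and was 0.0066 with libraries scaled to the same median. With the transcript of highest mean per gene, ana and lncRNA:CR43651 were no longer 2-fold apart. Limma called 0 features over all, 13 with the pair term, and from 7 to 12 with a library left out, where the lone sample is assumed to vary like the other group. In the other alternatives it called 0. Depth limits CG1698 in egt17 most.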

Other observations

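Cytochrome P450 genes, which encode oxidases of toxins, hormones and fatty acids, lie in 3 groups within 1 Mb of Boot, and were looked at after their values were seen. Of 8 such genes, 5 passed the filter and 1 (Cyp4ad1) was at 0 in every library. Over the whole genome 37 P450 genes passed the filter. Without overlap, 11 of the 37 were higher in the mutants and 10 of the 37 lower. Both are larger shares than over all 8755 features, of which 818 (9.34%) were higher and 1018 (11.6%) lower. The 37 include the 5 of the window, where Cyp6a14 and Cyp6a13 were higher and Cyp4p2 and Cyp4e2 lower without overlap. Differences in this family were thus also found outside the window. The genes of one group did not all go the same way. Next to Cyp4p2, which was lower in both mutants, Cyp4p1 was at 0.188 and 0.215 FPKM in Oregon-R, against 0.678 in egt17 and 1.61 in egt8. Cyp4p3 was at 0.285 and 1.12 FPKM in Oregon-R, against 0.390 in egt17 and 1.24 in egt8, with overlapping groups. Cyp6a13, beside Cyp6a14 and higher in both mutants like it, was at 4.99 and 1.39 FPKM in Oregon-R, against 27.6 in egt17 and 8.15 in egt8. Cyp4e2 was at 33.7 and 25.0 FPKM in Oregon-R, against 21.4 in egt17 and 23.3 in egt8, lower without overlap. Values of P450 genes with near-identical copies are uncertain, since the handling of shared reads is not given in the sources used here.

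Among further genes of the window, looked at after their values were seen, some differed by at least 1 on the log2(FPKM + 1) scale with groups that did not overlap. Differences of that size were found for 7.1% of the 183 window genes, the 4 chosen genes among them, and for 4.96% of all features. None of the further genes given here passed limma, with or without the pair term (adjusted p from 0.21 to 0.369 with it). An ABC transporter gene 295.5 kb from Boot was higher in the mutants, with 3.12 and 6.67 FPKM in Oregon-R, against 11.5 in egt17 and 16.3 in egt8. Lower in the mutants was CG34141, at 165.6 kb, which was at 2.001 and 3.85 FPKM in Oregon-R, against 0.170 in egt17 and 1.002 in egt8. Also lower was hebe, at 733.4 kb, with 29.4 and 13.8 FPKM in Oregon-R, against 7.51 in egt17 and 11.8 in egt8. The noncoding RNA gene lncRNA:CR44285, at 511.0 kb, was lower too, at 6.14 and 1.82 FPKM in Oregon-R and 0.701 FPKM in egt17, and was listed at 0 in egt8. Like Cyp4p2, it passed the filter only through wild type. Its span is short, from 9605639 to 9605870, and few reads stood behind its values.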
